A study of Mus musculus with 415 samples.

Results

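The 4 Hox clusters hold the Hox genes of the mouse, a family of homeobox transcription factors that give cells along the body axis their positional identity. HoxA lies on chromosome 6, HoxB on chromosome 11, HoxC on chromosome 15 and HoxD on chromosome 2. Their chromatin accessibility was followed in single cells of the R1 mouse embryonic stem cell line. The cells were grouped into embryoid bodies by the hanging drop method for 48 hours and then kept for 4 days in medium with retinoic acid (0.5 mM, as labelled). Every cell had this treatment and time point, so there was no untreated group. Single cells were captured on a Fluidigm C1 device and treated with Tn5 transposase, an enzyme that inserts sequencing adapters into accessible DNA, and the libraries went through 13 additional PCR cycles. The labels name no separate cultures or chips. All cells therefore count as 1 sample here, no p-value was computed, and all 95% intervals cover counting error only.

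The members are the 52 of 23180 accessible regions of the deposited table that overlap windows of 130 kb (HoxA), 200 kb (HoxB), 140 kb (HoxC) and 120 kb (HoxD) around the clusters on the mouse build mm9. The windows gave 12 regions in HoxA, 15 in HoxB, 9 in HoxC and 16 in HoxD. The rule uses position only. The gene tables at hand are on the later build GRCm38.p6, so no region was assigned to a gene, an exon or a promoter. These tables served to orient the clusters: the 5′ end lies at higher coordinates in HoxA and at lower coordinates in HoxB, HoxC and HoxD. Positions are given as the distance from the 3′ end of the window.

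Genes of a cluster are all read in the same direction, and their order matches the order in which they are used. Genes at the 3′ end (paralogue groups 1 to 4) are switched on early and act towards the head, whereas genes at the 5′ end (groups 9 to 13) follow later and act towards the tail and in the limbs and genitalia. In undifferentiated stem cells the clusters are covered by Polycomb repression. Retinoic acid acts through nuclear receptors that bind DNA as pairs over repeats of the hexamer AGGTCA, and such elements near the 3′ end of several clusters are known to start Hox transcription.

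Promoter sequences are shown for the paralogue 4 genes of 3 clusters, which lie towards the 3′ end, and for Hoxd13, the most 5′ gene of HoxD, because the cell groups described below differed between these ends. Hoxb4, Hoxc4 and Hoxd4 encode homeodomain factors that act in the hindbrain and neck region, and Hoxd13 encodes one that acts in digits and the genital region. Each sequence runs from 250 bases before to 50 after the annotated start in RefSeq, 5′ to 3′ on the strand of the gene, and capitals mark AGGTCA read on either strand.
Hoxb4 (GRCm38.p6, chr11:96318017-96318316, + strand): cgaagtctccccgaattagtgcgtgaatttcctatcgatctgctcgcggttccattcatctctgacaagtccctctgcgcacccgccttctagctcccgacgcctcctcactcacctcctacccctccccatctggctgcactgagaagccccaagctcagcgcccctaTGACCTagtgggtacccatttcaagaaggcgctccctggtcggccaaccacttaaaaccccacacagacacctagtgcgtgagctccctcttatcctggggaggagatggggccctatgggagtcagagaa
Hoxc4 (GRCm38.p6, chr15:103034145-103034444, + strand): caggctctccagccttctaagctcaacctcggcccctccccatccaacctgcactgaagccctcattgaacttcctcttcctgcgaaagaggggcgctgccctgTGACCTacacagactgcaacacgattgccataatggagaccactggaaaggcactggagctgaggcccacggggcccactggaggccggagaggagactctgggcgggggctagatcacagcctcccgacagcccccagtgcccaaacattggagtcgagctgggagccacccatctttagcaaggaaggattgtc
Hoxd4 (GRCm38.p6, chr2:74721728-74722027, + strand): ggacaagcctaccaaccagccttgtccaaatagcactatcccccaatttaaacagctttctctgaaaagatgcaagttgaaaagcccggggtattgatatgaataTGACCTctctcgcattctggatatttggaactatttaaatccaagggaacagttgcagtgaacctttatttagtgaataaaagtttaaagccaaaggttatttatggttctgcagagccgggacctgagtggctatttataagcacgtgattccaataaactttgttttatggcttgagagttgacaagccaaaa
Hoxd13 (GRCm38.p6, chr2:74667975-74668274, + strand): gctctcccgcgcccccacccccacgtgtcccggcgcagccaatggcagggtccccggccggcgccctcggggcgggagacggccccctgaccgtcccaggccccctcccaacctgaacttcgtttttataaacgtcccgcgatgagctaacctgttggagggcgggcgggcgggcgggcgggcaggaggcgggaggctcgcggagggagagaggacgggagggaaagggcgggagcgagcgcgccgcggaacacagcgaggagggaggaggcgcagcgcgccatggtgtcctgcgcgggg
The Hoxb4, Hoxc4 and Hoxd4 sequences each held 1 copy of the hexamer, in each case as its reverse complement, that is, on the strand opposite the gene, and in Hoxb4 its first base lay 81 bases before the start. The Hoxd13 sequence held 0 copies. Of the other Hox promoters matched by symbol, those of Hoxd3, Hoxa5, Hoxd8 and, towards the 5′ end, Hoxd10 held 1 copy each. Those of Hoxa2, Hoxb1 and Hoxd1, towards the 3′ ends, held 0 copies, as did all the rest. A relation to position was not tested. The sequences differed in CG dinucleotides, the sites of DNA methylation, with 14 in Hoxb4, 9 in Hoxc4, 4 in Hoxd4 and 37 in Hoxd13.

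Promoter sequences were matched for 22 of 38 Hox genes by symbol, with 24 promoters in all. The hexamer AGGTCA, searched on both strands, was in 7 of 24 promoters (29.2%) and in 16.3% of the 32851 mouse promoters of the same length. Direct repeats of it with 5 bases between the copies (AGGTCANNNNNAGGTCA) were in 0 of the 24, as were repeats with 2 bases between (AGGTCANNAGGTCA), and each of these was in 0.00913% of all promoters. The motif TGATNNAT, which PBX and Hox proteins bind together, was in 4 of 24 (16.7%) against 8.85%. Hox promoters held a median of 14.5 CG dinucleotides, with a range of 4 to 45, against a median of 7 over all promoters, and their median GC content was 57.7% against 52.7%. These matches describe the letters of the promoters and were not tied to any accessible region, because the regions are on another build.

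Accessible regions were dense in the clusters. There were 8.81 regions per 100 kb over the 4 windows, against 1.07 per 100 kb over chromosomes 2, 6, 11 and 15 as a whole. HoxD was the densest with 13.3 per 100 kb, followed by HoxA with 9.23, HoxB with 7.50 and HoxC with 6.43. The regions were not spread evenly. When each window was divided into 3 equal parts, the 3′ part and the middle part held 23 regions each and the 5′ part held 6. These parts are cuts by distance and were not matched to paralogue groups. HoxA had no region in the last 48.1 kb of its window, and in HoxB a stretch of 76.7 kb, from 107.7 to 184.3 kb, was empty. The longest empty stretch was 31.5 kb in HoxC and 18.3 kb in HoxD. The table holds only regions with signal in at least 31 cells, so rarer openings in these stretches were not analysed here.

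Any value above 0 counted as an open region in that cell. Hox regions were open in 7.71% to 31.3% of the cells, with a median of 11.7%, and 18 of 52 (34.6%) lay above the median of all regions, which was 14.5%. HoxA had the highest median share, 17.7%, with 8 of 12 regions above the overall median. HoxC followed with 13.5% and 4 of 9 regions, HoxB with 11.3% and 4 of 15, and HoxD with 10.2% and 2 of 16. Hox regions were also narrower, with a median width of 613.5 bp against 762 bp over the table. Across the 52 regions, wider ones were open in more cells (Pearson r = 0.66, Spearman rho = 0.62). The same held over all 23180 regions (r = 0.48, rho = 0.55). Per kb of region the median share was 22.3% in the clusters and 21.2% over all regions, so on this scale the levels lay close together. The order of the clusters also changed per kb, with medians of 23.1% in HoxB, 22.6% in HoxA, 20.2% in HoxD and 16.8% in HoxC. The correlations are across regions that share the same cells and are not a test.

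**Figure D1:**
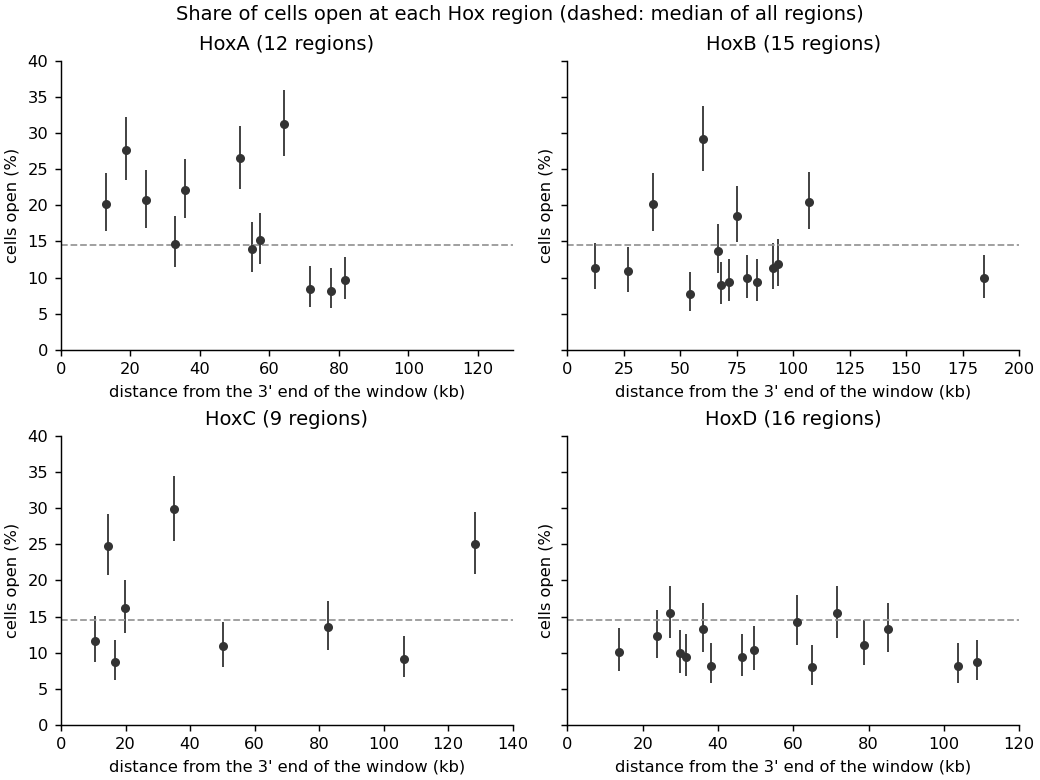
Share of cells in which each Hox region was open, as a percentage, against the distance of the region from the 3′ end of its window in kb, with 1 panel per cluster. Points are regions, bars are exact (Clopper-Pearson) 95% intervals and the dashed line is the median of all regions, 14.5%. HoxA, HoxB and HoxC each have regions near 30%, whereas no HoxD region passes 15.4%.

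The most widely open Hox region was in HoxA, at chr6:52153412-52154999, 64.2 kb from the 3′ end, and was open in 130 cells (31.3%, exact 95% interval 26.9% to 36.03%). Next in HoxA were chr6:52108133-52109345 with 27.7% (23.5% to 32.3%) and chr6:52140785-52142180 with 110 cells (26.5%, 22.3% to 31.03%). The intervals of these 3 overlap, so their order is not resolved. The lowest HoxA region, chr6:52167250-52167975 at 77.6 kb, was open in 34 cells (8.19%, 5.74% to 11.3%). The 3 HoxA regions nearest the 5′ end were at 8.43%, 8.19% and 9.64%, and the other 9 were at 13.98% or more.

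The highest regions of HoxB and HoxC were open in nearly as many cells as that of HoxA. In HoxB, chr11:96179444-96180865 at 59.8 kb was open in 29.2% of cells (24.8% to 33.8%). It was followed by chr11:96132340-96133829 with 85 cells (20.5%, 16.7% to 24.7%) and chr11:96202078-96202608 with 84 cells (20.2%, 16.5% to 24.4%), whose intervals lie below that of the first. The lowest HoxB region, chr11:96185560-96185979, was open in 32 cells (7.71%, 5.33% to 10.7%), near the limit of 31 cells that the table holds. In HoxC the highest region was chr15:102844284-102845465 at 35.1 kb with 29.9% of cells (25.5% to 34.5%). A region at the very 5′ edge of the HoxC window, chr15:102750917-102752406 at 128.3 kb, was open in 25.1% of cells (20.96% to 29.5%), and chr15:102865031-102866120 at 14.4 kb in 24.8% (20.7% to 29.3%). The lowest HoxC region, chr15:102863202-102863523, was open in 36 cells (8.67%, 6.15% to 11.8%).

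HoxD had the most regions and the lowest median share, 10.2%, although HoxC was lowest per kb. Its highest regions were chr2:74587447-74588298 at 27.1 kb and chr2:74542836-74543969 at 71.6 kb, each open in 64 cells (15.4%, 12.1% to 19.3%). Next came chr2:74553907-74554310 at 60.9 kb, open in 59 cells (14.2%, 11.002% to 17.95%). The lowest, chr2:74549826-74550394, was open in 33 cells (7.95%, 5.54% to 10.99%). The upper bound of the highest HoxD regions is below the lower bound of the highest region in each of the other clusters.

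Shares fell only weakly from the 3′ to the 5′ end. The median was 13.7% in the 3′ part of the windows, 11.1% in the middle part and 9.52% in the 5′ part. Per kb of region the medians were 22.8%, 22.4% and 16.3%, so the first and second parts were nearly level on that scale. The relation between distance and share over the 52 regions was weak (Pearson r = -0.17, Spearman rho = -0.24). When the regions were instead divided by rank of position in each cluster, the medians were 12.8%, 13.7% and 11.1%, with no steady order.

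Within a cell, most Hox regions were closed or not sampled. A cell had a median of 6 of the 52 open (quartiles 3 and 10), with a range of 0 to 27. HoxA had at least 1 open region in 80% of cells (75.8% to 83.7%), HoxB in 77.8% (73.5% to 81.7%), HoxD in 73.98% (69.5% to 78.1%) and HoxC in 70.4% (65.7% to 74.7%). All 4 clusters were open somewhere in 46.5% of cells (41.6% to 51.4%), and 12 cells (2.89%, 1.503% to 4.996%) had no open Hox region. These values follow the depth of a cell, which ran from 756 to 12267 open regions over the whole table. An expected chance of being open was therefore computed for each region and cell from the number of cells open at the region and the number of regions open in the cell. With depth accounted for in this way, 198.6 cells were expected to have all 4 clusters open and 7.57 to have none.

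The number of open Hox regions varied more between cells than depth alone gives. Over all 52 regions the variance around the expected number was 1.67 times the variance that independent opening would give. By cluster this ratio was 1.36 in HoxB, 1.30 in HoxA, 1.27 in HoxC and 1.14 in HoxD. The ratio was not computed for other sets of regions, so whether it is particular to Hox regions is not known. At least 20 regions were open in 18 cells, against 11.9 expected. Both tails of the distribution were thus above the expected number: 12 against 7.57 cells with no open region, and 18 against 11.9 with at least 20. With at least 25 open it was 4 against 3.05. These counts are small, and whether the tails exceed counting error was not tested.

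**Figure D2:**
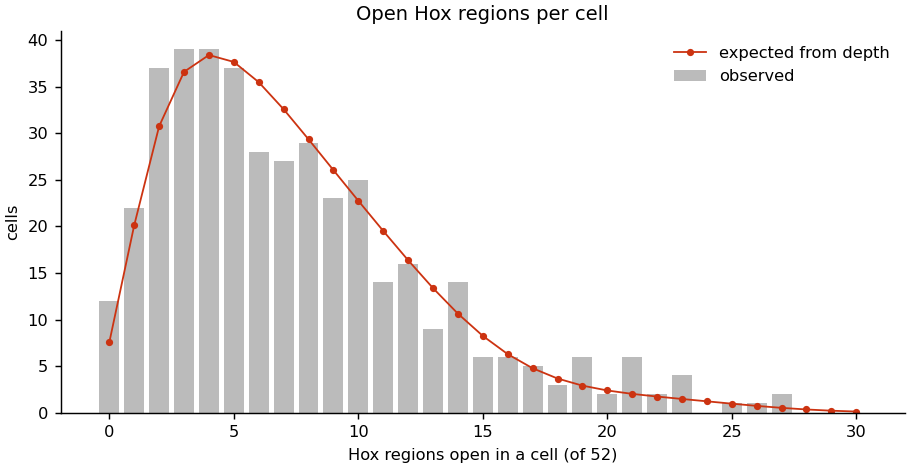
Number of cells, on the vertical axis, by the number of Hox regions open in a cell, of 52. Grey bars are the observed cells and the red line is the number expected from the depth of each cell. Bars lie above the line at 0 open regions, where 12 cells were observed and 7.57 expected, and below it around 6 to 7 open regions.

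Regions of a cluster opened in the same cells somewhat more often than expected. Summed over all pairs within clusters, cells with both regions open were 1.10 times the number expected, with 1.12 in HoxA, 1.11 in HoxC and 1.09 in both HoxB and HoxD. By distance the clusters differed. For pairs under 10 kb apart the ratio was 1.14 (54 pairs), against 1.11 for other pairs of the same chromosomes at that distance. From 10 to 50 kb it was 1.11 against 1.07, and from 50 to 200 kb 1.05 against 1.04. The clusters therefore lay close to other regions at like distances, with 1 exception in size: the 6 HoxC pairs under 10 kb had a ratio of 1.42, against 1.12 for other close pairs on chromosome 15. Of these 6 pairs 2 (33.3%) reached a ratio of 1.5, against 13.7% of the other close pairs on chromosome 15. The 6 pairs are combinations of the same few neighbouring regions, so they are not independent. HoxD pairs were at 1.17 under 10 kb and at 0.99 from 50 to 200 kb. Of HoxD pairs at 10 to 50 kb, 15.1% reached 1.5, against 7.78% of other pairs of chromosome 2. From 50 to 200 kb it was 17.9% against 6.3%, and under 10 kb 10.5% against 11.8%. Over all 4 clusters these shares were 9.26%, 10.1% and 9.41% from the shortest distance, against 13.4%, 8.3% and 5.99%. In HoxA and HoxB the closest pairs were not the highest. Over the 3 distances, from the shortest, HoxA stood at 1.09, 1.14 and 1.06, and HoxB at 1.05, 1.10 and 1.07.

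**Figure D3:**
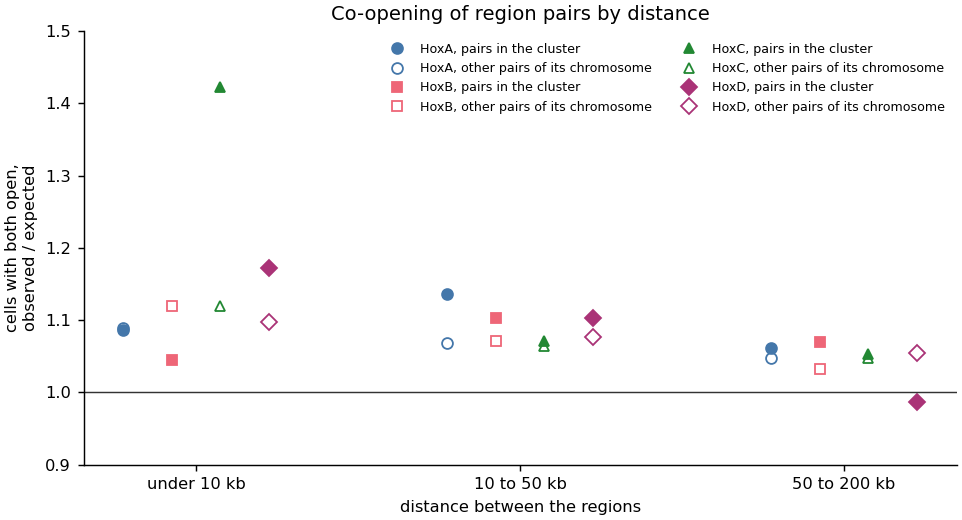
Cells with both regions of a pair open, as the ratio of observed to expected cells on the vertical axis, for pairs under 10 kb, 10 to 50 kb and 50 to 200 kb apart. Filled symbols are pairs within a Hox cluster and open symbols are all other pairs of the same chromosome. HoxC pairs under 10 kb stand highest at 1.42, and the other filled symbols lie between 0.99 and 1.17.

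In each cluster, 1 pair at least 10 kb apart had the highest ratio among pairs with at least 5 expected cells. In HoxD this was chr2:74505567-74506935 with chr2:74535748-74536852, both towards the 5′ end, open together in 12 cells against 5.58 expected (ratio 2.15, counting interval 1.11 to 3.75). In HoxB it was chr11:96185560-96185979 with chr11:96202078-96202608, with 16 cells against 8.86 (1.81, 1.03 to 2.93). In HoxA it was chr6:52122510-52122893 with chr6:52167250-52167975, with 12 against 6.93 (1.73, 0.89 to 3.02). In HoxC it was chr15:102829170-102830138 with chr15:102869210-102869552, with 11 against 7.23 (1.52, 0.76 to 2.72). These are the highest of 81, 82, 53 and 29 pairs, and their intervals do not account for that choice.

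Clusters on different chromosomes also opened together slightly more often than expected. Over 999 pairs of regions in different clusters the ratio was 1.05, against 1.004 for other pairs between the 4 chromosomes. The latter sums over whole chromosomes, which the match to each cell's total holds near 1. It does not show what another small set of regions would give. HoxB with HoxC was highest at 1.08, followed by HoxA with HoxC (1.07), HoxA with HoxB (1.06), and HoxA with HoxD and HoxB with HoxD (both 1.05). HoxC with HoxD stood at 0.998. When region and cell rates were fitted separately within each of the cell groups described next, a choice made after the data were seen, the ratio was 1.01 between clusters and 1.06 within them. Within single clusters it was then 1.10 in HoxA, 1.09 in HoxC, 1.03 in HoxD and 1.02 in HoxB.

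Cells were divided into 3 groups by their accessibility on the 15 autosomes that carry no Hox cluster, so no region of chromosomes 2, 6, 11 or 15 took part. The groups are called by number, because naming them by marker genes needs an annotation on mm9. Group 1 held 47.1% of the cells, group 2 27.5% and group 3 25.4%, and 1 shallow cell was left out. Their depth differed, with medians of 3543, 4750.5 and 3715 open regions per cell. For this reason each group's open Hox regions were divided by the number expected from depth.

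Group 3 had fewer open Hox regions than the other cells once depth was taken into account, in the 3′ and middle parts of the windows but not in the 5′ part. Observed over expected was 0.76 in group 3 (counting interval 0.70 to 0.82), against 1.05 (0.99 to 1.11) in group 1 and 1.12 (1.05 to 1.18) in group 2. Over all 5820 regions of the 4 chromosomes the same ratios in groups 3, 1 and 2 were 0.990, 0.9988 and 1.009. The expected numbers match each cell's total over the whole table, so such large sums lie near 1 by construction. They do not show what another small set of regions would give. By cluster, group 3 stood at 0.60 (0.50 to 0.71) in HoxB, 0.72 (0.60 to 0.85) in HoxD, 0.85 (0.71 to 1.01) in HoxC and 0.88 (0.76 to 1.01) in HoxA. By position it stood at 0.65 (0.57 to 0.74) in the 3′ part, 0.77 (0.68 to 0.88) in the middle part and 1.24 (0.9992 to 1.52) in the 5′ part. The intervals of the 3′ and the 5′ part do not overlap, but they treat openings as independent. Open Hox regions varied more between cells than that, so these intervals are too narrow. The 5′ part also holds 6 regions, none of them in HoxA. Of its 93 group 3 openings, 39 were in 1 HoxC region, chr15:102750917-102752406. When the regions were divided by rank of position instead, group 3 stood at 0.68 (0.58 to 0.78), 0.64 (0.54 to 0.75) and 0.99 (0.87 to 1.13) from the 3′ to the 5′ end, so the middle was then the lowest and the 5′ value was near 1.

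**Figure D4:**
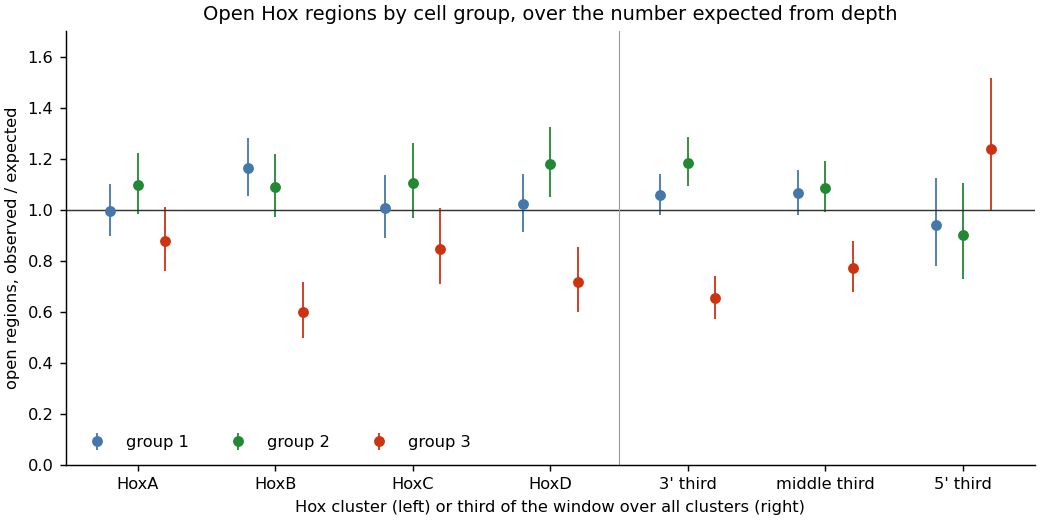
Open Hox regions in each cell group as the ratio of observed to expected numbers on the vertical axis, by cluster on the left and by part of the window (3′, middle and 5′) on the right. Points are ratios and bars are exact Poisson 95% intervals, which cover counting error only. Group 3 lies lowest in every cluster and is at 0.65 in the 3′ part and at 1.24 in the 5′ part.

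The 3′ part of HoxD showed the widest separation. At least 1 of its 7 regions was open in 25.7% of group 3 cells (exact interval 17.7% to 35.2%), 49.7% of group 1 cells (42.5% to 56.97%) and 69.3% of group 2 cells (59.97% to 77.6%). Observed over expected was 0.40 (0.28 to 0.57), 1.12 (0.95 to 1.31) and 1.28 (1.08 to 1.52). The 3′ part of HoxC, with 5 regions, was open in 38.1% of group 3 cells (28.8% to 48.1%), 55.4% of group 1 (48.1% to 62.5%) and 71.9% of group 2 (62.7% to 79.9%), with ratios of 0.57 (0.43 to 0.75), 1.02 and 1.30 (1.10 to 1.51). In HoxB the deficit reached through the middle of the window, with group 3 ratios of 0.61 (0.47 to 0.79) in the 3′ part and 0.53 (0.39 to 0.69) in the middle part. HoxA departed from this, with a group 3 ratio of 0.94 (0.77 to 1.14) in its 3′ part and 0.82 (0.67 to 1.01) in its middle part. At the 5′ ends group 3 stood at 1.35 (0.99 to 1.79) in HoxC and 1.12 (0.78 to 1.57) in HoxD. In HoxC, 39 of these 47 openings were in the region at the 5′ edge of the window.

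The difference between groups 1 and 2 was not tested. Group 1 was above expectation in HoxB, at 1.16 (1.05 to 1.28), and close to 1 in HoxA (0.99), HoxC (1.01) and HoxD (1.02). Group 2 was at 1.18 (1.05 to 1.32) in HoxD, 1.11 (0.97 to 1.26) in HoxC, 1.10 (0.98 to 1.22) in HoxA and 1.09 (0.97 to 1.22) in HoxB, where its interval overlaps that of group 1. With open meaning more than 1 fragment, group 1 was at 1.03 (0.81 to 1.28) in HoxB. Group 2 was, over all clusters, at 1.19 (1.09 to 1.28) in the 3′ part, against 0.90 (0.73 to 1.11) in the 5′ part. In the 5′ part, groups 1, 2 and 3 thus stood at 0.94, 0.90 and 1.24.

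Single regions were compared by the ratio of observed over expected in a group to that in all other cells, and were counted when it reached 2-fold. In group 3, 21 of 52 Hox regions were at least 2-fold lower (40.4%), against 23.3% of the 5820 regions of the 4 chromosomes, and 1 was at least 2-fold higher (1.92%), against 9.59%. The 21 comprised 8 in HoxB, 7 in HoxD, 4 in HoxC and 2 in HoxA. Of the 21, 16 also had a counting interval of the ratio that left out 1 (30.8% of 52, against 17.3%). All 21 lay on the 3′ side of the midpoint of their window, where there were 37 regions, and 0 of the 15 on the 5′ side were that low. The midpoint is also a cut by distance, so the 3′ side is not the same as paralogue groups 1 to 4. The median group 3 ratio was 0.48 on the 3′ side and 1.13 on the 5′ side, against 0.92 over the 5820 regions. However, when the shallower cells (below the median depth) were left out, 11 of 52 (21.2%) were at least 2-fold lower, against 19.8%, which is near the background. The 11 all lay on the 3′ side, where the median ratio was 0.56 against 1.28 on the 5′ side. In cells thinned to 1500 open regions each, 24 of 52 were that low (46.2%, against 27.6%), and the median ratio was 0.30 on the 3′ side and 0.72 on the 5′ side, against 0.88 over all regions. The 3′ side was thus the lower one in each of these 3 readings, while the count and the level of the 5′ side changed with the treatment of depth.

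In group 2, 3 regions were at least 2-fold higher (5.77% against 8.83%) and 0 at least 2-fold lower (0% against 8.28%). In group 1, 1 region was higher (1.92% against 7.16%) and 0 lower (0% against 10.4%). These shares are all below the background.

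**Figure D5:**
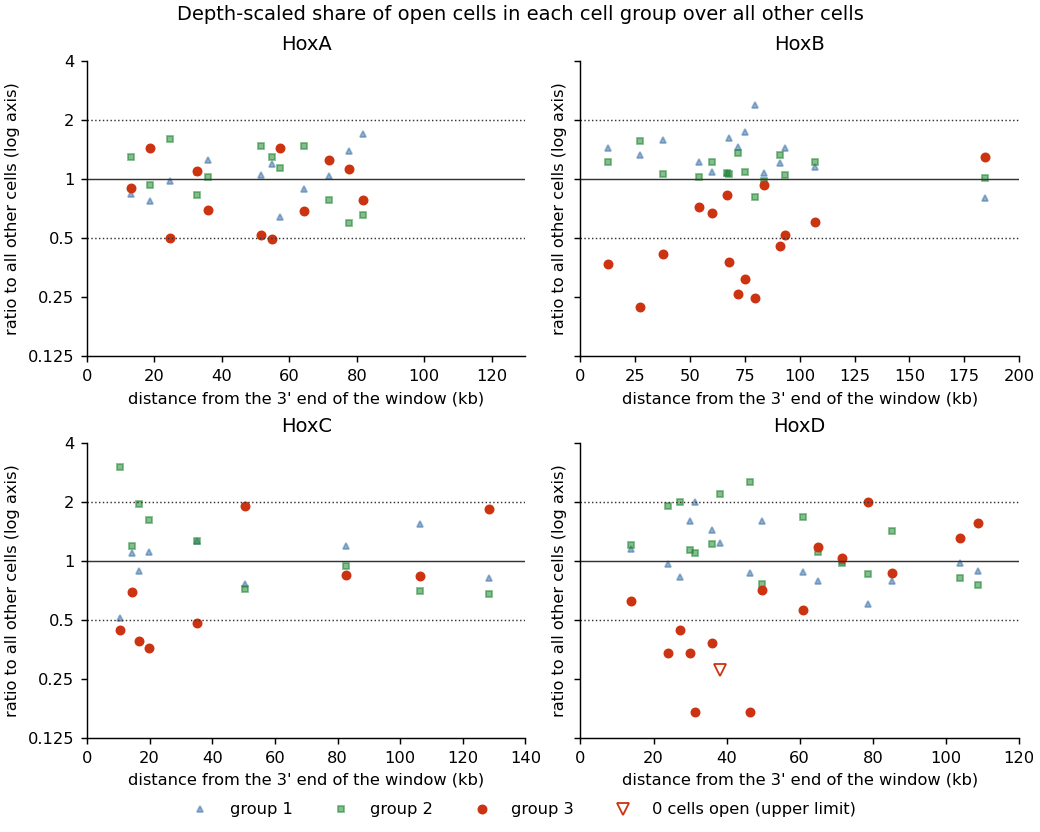
Ratio of the depth-scaled share of open cells in each group to that in all other cells, on a log axis, for each Hox region against its distance from the 3′ end of the window in kb. Triangles are group 1, squares group 2 and circles group 3, dotted lines mark 2-fold, and the open triangle is the upper limit for the region open in 0 cells of group 3. Group 3 points below 0.5 lie on the 3′ side of the windows, and at the 5′ ends of HoxB, HoxC and HoxD the outermost group 3 point lies above 1.

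The regions lowest in group 3 were in HoxD and HoxB. The HoxD region chr2:74576788-74576999, 38.1 kb from the 3′ end, was open in 0 group 3 cells, which allows a share of up to 2.86% by a limit of 3 counts. It was open in 16 group 1 cells (8.21%) and 18 group 2 cells (15.8%), so it was at least 3.62-fold lower in group 3 at this limit. The exact counting interval of the ratio is wider and reaches 0.36. In HoxD, 2 further regions, chr2:74583451-74583795 and chr2:74568458-74568842, were each open in 2 group 3 cells (1.90%) and in 37 of the other cells (11.97%), a ratio of 0.17 (0.02 to 0.66). In HoxB, chr11:96212591-96213482 was open in 3 group 3 cells (2.86%) and in 42 others (13.6%), a ratio of 0.22 (0.04 to 0.70). The last 3 regions were chosen after their values were seen.

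The single Hox region that was at least 2-fold higher in group 3 lay towards the 5′ end of HoxD, at chr2:74535748-74536852. It was open in 18 group 3 cells (17.1%) and 28 other cells (9.06%), a ratio of 2.003 (1.04 to 3.75). It belongs to the HoxD pair with the highest co-opening given above. The region at the 5′ edge of HoxC, chr15:102750917-102752406, came close with 39 group 3 cells (37.1%) and 65 others (21.04%), a ratio of 1.83 (1.20 to 2.77), and is named here after its value was seen. It was open in 39 group 1 cells (20%) and 26 group 2 cells (22.8%).

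The 3 regions that were at least 2-fold higher in group 2 lay on the 3′ side. The HoxC region nearest the 3′ end, chr15:102869210-102869552 at 10.6 kb, was open in 29 group 2 cells (25.4%) and 19 of the other 300 (6.33%), a ratio of 3.004 (1.63 to 5.67). The same region was the lowest of all Hox regions in group 1, with 13 cells (6.67%) and a ratio of 0.51 (0.25 to 0.99). In HoxD, chr2:74568458-74568842 was open in 22 group 2 cells (ratio 2.53, 1.28 to 5.08) and chr2:74576788-74576999 in 18 (2.19, 1.06 to 4.60), and both were among the lowest in group 3. The lowest ratio in group 2, 0.60, belonged to the HoxA region chr6:52167250-52167975, open in 8 cells. The 1 region that was at least 2-fold higher in group 1 was chr11:96160256-96160436, in the middle part of HoxB, open in 26 group 1 cells (13.3%), 12 group 2 cells and 3 group 3 cells, with a ratio of 2.40 (1.22 to 4.87).

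The deficit did not stop at the window edge in HoxC. Within 100 kb beyond its 3′ end there were 9 further regions, and their median group 3 ratio was 0.40, with a range of 0.30 to 0.85. The 5′ edge of HoxC had 0 regions within 100 kb and each of the other edges 1 to 3, too few for a comparison. Beyond the 3′ end of HoxA 2 regions were at 0.76 and 0.78, 1 beyond that of HoxB was at 0.46 and 1 beyond that of HoxD at 1.42.

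The titles number the cells, and the groups were not spread evenly over these numbers. Group 3 made up 35.6% and 36.5% of the cells in the first and second of 4 consecutive sets of cells, and 14.4% and 14.6% in the others. What the numbers stand for is not given in the labels. Hox regions over expected were 0.91, 0.98, 1.03 and 1.08 in the sets in order. Within the sets, group 3 was at 0.69, 0.80, 0.75 and 0.82 over all clusters, and at 0.53, 0.71, 0.76 and 0.69 in the 3′ part, so it was below 1 in each. In the 5′ part it was at 1.36 and 1.37 in the first pair of sets and at 0.92 and 1.005 in the others. These intervals all include 1 and overlap each other, and the last pair rests on 11 and 12 openings. HoxB in group 3 was at 0.40, 0.67, 0.58 and 0.89 in the sets in order. HoxC was at 0.94, 0.68, 0.79 and 1.08.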

How the data were processed

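Single-cell ATAC-seq was done on 415 cells, and groups 1, 2 and 3 held 195, 114 and 105 of them. The deposited table gives, for 23180 regions on mm9, a whole-number signal per cell. From the values, this signal appears to be aligned bases: 148 would be 1 read pair, called a fragment here. Of the Hox values above 0, 34.6% equal 148. In some narrow regions the median over open cells was below 1 fragment, as low as 0.61 in chr11:96160256-96160436, which is 180 bp wide. More than 1 fragment may thus be harder to reach in narrow regions. Per the submitters' processing notes, MACS2 (for peak calling) and the build mm9 were used. How reads were aligned, duplicates treated and regions picked is not given in the sources used here. Counts had been planned for, so a value above 0 was used in place of a count. Depth was 791 to 25069 fragments per cell (median 4529), and 18.4% of values were above 0. No cells were identical.

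The expected chance of opening was 1 − exp(−region rate × cell rate), fitted to the margins of the whole table and tested on simulated data. Cells with at least 1000 fragments (414) were grouped into 3 by k-means (50 starts) on components 2 to 10 of a singular value decomposition of TF-IDF weighted regions. Ratios of 2-fold were counted. Intervals are Clopper-Pearson for shares, Poisson for sums, chi-square for variance ratios and conditional binomial for ratios of ratios. PCR reads carry no molecular identifiers. Named regions are the 3 most and 1 least open per cluster, per group up to 3 at least 2-fold higher and the lowest, and per cluster the pair with the highest co-opening. Members, lists and rules were chosen with earlier results of these data known. Marker and pathway lists need an mm9 annotation and were not run. Python 3.11.15, numpy 2.4.6, scipy 1.17.1 and scikit-learn 1.9.0 were used.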

Additional observations from a re-analysis of the deposited data

How the results depend on the processing

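The Hox regions rest on 32 to 130 open cells each, and shallow cells leave many regions unsampled. No ratio whose counting interval left out 1 passed to the other side of 1 with an interval that left out 1, under any alternative run. Of the 24 ratios per group, 13 had at least 1 alternative value on the other side of 1, with 27 such values in all, and the interval of each of the 27 includes 1. No paired analysis was possible because the result comes from no test and the study has 1 group of cells.

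With open meaning more than 1 fragment, the median share was 2.17% over all clusters and 2.89%, 2.17% and 1.33% in the 3′, middle and 5′ parts. Co-opening was then 1.42 within and 1.19 between clusters. Observed over expected was 0.99 in group 1 and 1.19 in group 2. At least 2-fold higher were 8, 12 and 10 regions in groups 1, 2 and 3 (15.4%, 23.1% and 19.2%, against 15%, 17.8% and 15.6% of all regions), and 8 and 9 were lower in groups 1 and 2 (15.4% and 17.3%, against 22.2% and 19.1%). In group 3, 27 were lower (51.9% against 34.4%), 21 on the 3′ and 6 on the 5′ side. In cells at or above the median depth, the median share was 17.8%, with 19.7%, 16.8% and 13.0% by part. There 2 regions were higher (3.85% against 6.58% of all regions) and 1 lower (1.92% against 11.4%) in group 1. In group 3, 2 were higher (3.85% against 9.62%) and 11 lower (21.2% against 19.8%). Per kb the shares were 22.3%, and 22.8%, 22.4% and 16.3% by part.

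With the expected chance as the product of share and depth, co-opening was 1.15 within and 1.10 between clusters. Then 5 regions were higher in group 2 (9.62%, against 9.42% of all regions) and 0 in group 3 (0% against 9.45%). Fitted within each cell group, co-opening was 1.06 within and 1.01 between clusters. With 2 cell groups, the larger holds most cells of groups 1 and 2. In it 19 regions were higher (36.5% against 22.9%), and 0 were higher in group 3 (0% against 9.81%). With 4 groups, 1 was lower in group 1 (1.92% against 11.2%) and 0 higher in group 3 (0% against 9.81%). With component 1 included, group 1 was at 1.15 with 6 higher (11.5% against 2.65%). Group 2 had 6 higher (11.5% against 8.21%) and 1 lower (1.92% against 7.97%), and group 3 had 0 higher (0% against 9.66%). Groups 1 and 2 matched poorly there (overlap of cells 0.43 and 0.35 of their union), and group 3 well (0.90). In cells thinned to 1500 open regions, groups 2 and 3 were at 1.20 and 0.69. Counts were 7 higher (background 12.5%) and 7 lower (15.5%) in group 1, 11 (13.7%) and 4 (16.6%) in group 2, and 2 higher (13.4%) and 24 lower (27.6%) in group 3. Without depth scaling, 0 were higher (0% against 4.04%) and 2 lower (3.85% against 15.4%) in group 1. Then 10 were higher in group 2 (19.2% against 15.4%) and 0 in group 3 (0% against 9.3%). Within the first title set, groups 1 and 3 were at 0.98 and 0.69, and within the last set group 2 was at 1.19. The cause of these shifts was not tested. Over these alternatives the background share of regions at least 2-fold higher was 2.65% to 22.9% in group 1, 8.21% to 22.9% in group 2 and 9.3% to 15.6% in group 3, and the share lower was 8.01% to 22.2%, 4.97% to 19.1% and 17.3% to 34.4%. Limiting members to regions inside the windows and up to 2 kb wide removed no region, so it tests nothing.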
